A study of Mus musculus with 12 samples.

Results

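The genes described here encode 7 classical adipokines, proteins that fat cells release into the blood: leptin (Lep), adiponectin (Adipoq), resistin (Retn), retinol binding protein 4 (Rbp4), adipsin (Cfd), nicotinamide phosphoribosyltransferase (Nampt) and C1q/TNF-related protein 9 (C1qtnf9). They were taken by name from the expression table, using a row of the array assigned to that gene alone. Of the 7 genes, 6 had such a row, 1 row each, out of 20259 genes with a row of their own. All 6 lay above the expression floor in all 12 arrays and were among the 15896 genes tested. Cfd had no matching row in the probe annotation used, so it is not analysed here. The RNA came from interscapular brown fat of 12 female C57BL/6 mice aged 12 weeks and kept at 30 °C for the last 2 weeks, with 1 array per mouse and 3 mice in each of 4 groups.

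The knockout mice after CL316243 carried Adiponectin-Cre with floxed Cpt2 alleles (Cpt2 f/f) and received 10 mg/kg of CL316243, a β3-adrenergic receptor agonist, by intraperitoneal injection 3 h before dissection. The knockout mice after saline had the same genotype and received saline instead. The wild-type mice after CL316243 and the wild-type mice after saline were Cpt2 f/f mice that carried the floxed alleles without the Cre. Cpt2 is the mitochondrial enzyme that completes the entry of long-chain fatty acids for oxidation. The Cre acts in adipocytes, brown and white, so adipose depots other than the one sampled lack Cpt2 as well, and the other cells of the tissue keep it. The promoter that drives the Cre is that of the adiponectin gene, one of the genes described here, and carrying this transgene and lacking adipocyte Cpt2 come together in every knockout mouse and cannot be told apart.

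Adipokines carry information about fat stores and fat cell state to other organs. Leptin, released in proportion to fat mass, acts on hypothalamic neurons to limit feeding, and adiponectin raises fatty acid oxidation and insulin sensitivity through its receptors in muscle and liver. Resistin, an adipocyte hormone in mice, opposes insulin action in liver, Rbp4 carries retinol in plasma, Nampt makes the NAD precursor nicotinamide mononucleotide both inside and outside cells, and C1qtnf9 is a relative of adiponectin with a C1q-like head. Brown fat makes adiponectin at a high level, while leptin and resistin are better known as products of white fat, and β-adrenergic stimulation, which raises cAMP in the adipocyte, is known to lower leptin mRNA in rodents.

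Promoter windows are shown for the 2 genes with the largest agonist responses among the 6, Lep and C1qtnf9, and for the 2 genes that were higher in knockouts after both injections, Adipoq and Retn. They come from RefSeq on build GRCm38.p6, run from 250 bases before to 50 bases after the annotated start and lie on the plus strand: chr6:29059971-29060270 for Lep, chr14:60767884-60768183 for C1qtnf9, chr16:23146286-23146585 for Adipoq and chr8:3655520-3655819 for Retn. Capitals mark matches, on either strand, to the motifs searched.
Lep: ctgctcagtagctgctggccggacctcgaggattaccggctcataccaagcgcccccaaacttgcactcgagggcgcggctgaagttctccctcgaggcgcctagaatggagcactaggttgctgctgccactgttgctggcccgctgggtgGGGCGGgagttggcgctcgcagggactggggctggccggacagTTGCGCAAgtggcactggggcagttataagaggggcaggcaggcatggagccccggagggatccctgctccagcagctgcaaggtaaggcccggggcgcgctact
C1qtnf9: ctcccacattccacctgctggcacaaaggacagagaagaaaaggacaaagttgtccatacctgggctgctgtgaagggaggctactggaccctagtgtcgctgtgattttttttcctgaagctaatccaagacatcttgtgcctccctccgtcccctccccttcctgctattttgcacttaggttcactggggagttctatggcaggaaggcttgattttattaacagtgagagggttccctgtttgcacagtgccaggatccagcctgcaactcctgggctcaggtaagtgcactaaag
Adipoq: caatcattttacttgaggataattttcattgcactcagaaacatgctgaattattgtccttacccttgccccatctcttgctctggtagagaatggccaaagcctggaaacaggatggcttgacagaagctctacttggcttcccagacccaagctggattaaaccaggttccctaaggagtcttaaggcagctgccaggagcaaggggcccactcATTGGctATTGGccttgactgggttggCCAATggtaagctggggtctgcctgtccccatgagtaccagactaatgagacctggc
Retn: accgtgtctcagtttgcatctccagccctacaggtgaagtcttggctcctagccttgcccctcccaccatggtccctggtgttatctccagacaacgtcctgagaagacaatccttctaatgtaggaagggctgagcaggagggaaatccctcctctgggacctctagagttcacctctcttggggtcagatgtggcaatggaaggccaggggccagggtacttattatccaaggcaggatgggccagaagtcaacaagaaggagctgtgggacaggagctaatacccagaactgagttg

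The Lep window holds a GC box (GGGCGG) at position -98 from the start and a C/EBP palindrome (TTGCGCAA) at -55, which also counts as a match to the looser C/EBP core (TTGCNNAA). The palindrome occurs in 0.183% of all 32851 promoter windows of this length, the core in 10.8% and the GC box in 35.7%. The Adipoq window has CCAAT boxes (CCAAT, in 37.4% of windows) at -34 and -27 on the reverse strand and at -7 on the forward strand. The C1qtnf9 and Retn windows held none of the motifs. The others searched were the half-site of the cAMP response element (TGACG, 20.8% of windows), the full element (TGACGTCA, 1.79%, which contains the half-site), the E-box (CACGTG, 7.15%), the TATA box (TATAAA, 13.6%), the sterol response element (TCACNCCAC, 1.24%) and the glucocorticoid half-site (TGTTCT, 19.0%). The Nampt window, not printed, had a cAMP half-site at -135 and 5 GC boxes, with a GC content of 76.3%, against a median of 52.7% over all windows, 66.0% for Lep, 51.0% for C1qtnf9 and 54.0% for Retn. Rbp4 has windows at 2 annotated starts, not printed: one had a cAMP half-site at -172, a C/EBP core at -128, GC boxes at -114 and -99 and a TATA box at -28, and the other had a CCAAT box at -162. These matches are descriptions of letters in these windows and do not show binding.

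Across the series, Cpt2 checked the labels: its log2 signal was 7.87 to 8.20 in the 6 knockout arrays and 8.52 to 8.99 in the 6 wild-type arrays, with no overlap. Ucp1, the uncoupling protein that defines brown fat, was high in the tissue but uneven, at 10.69 to 11.90 in knockouts after CL316243, 8.39, 12.29 and 11.47 in knockouts after saline, 13.59 to 13.68 in wild types after CL316243 and 12.07 to 12.94 in wild types after saline. Knockout saline array 1, with the Ucp1 value of 8.39, stood apart, and its mean over the 7 tested brown adipocyte markers was -1.98 (log2, centred on the mean of all arrays). The same array had the highest Lep, Retn and Rbp4 of its group, so results that involve knockout saline mice are also given without it where it changes a call or moves a count or a called difference by over 1.5 times. Skeletal muscle markers ranged from -2.02 to 1.79, both extremes in wild types after saline. In whole tissue, fewer cells of a type and less RNA per cell cannot be told apart.

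**Figure D1:**
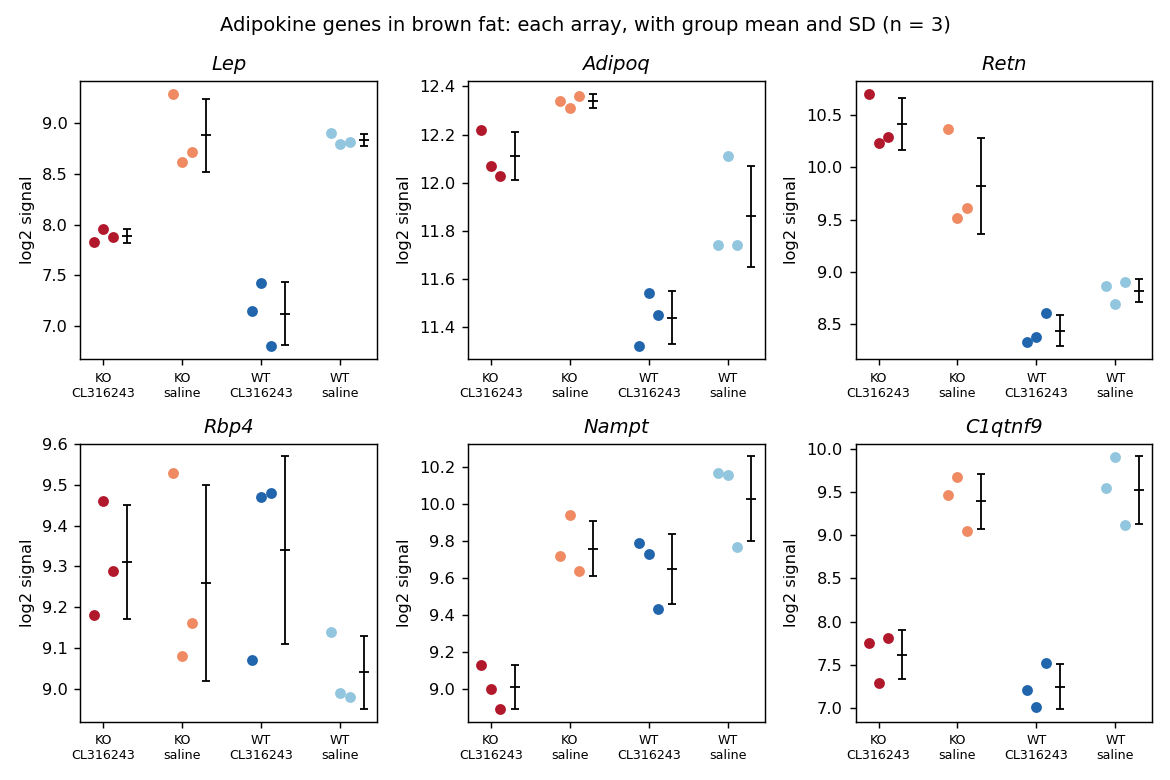
Log2 signal of the 6 adipokine genes with a row of their own (vertical axes, 1 panel per gene) in knockouts after CL316243, knockouts after saline, wild types after CL316243 and wild types after saline; each point is 1 mouse, and the bar beside it gives the mean and SD of 3. Lep and C1qtnf9 lie lower after CL316243 in both genotypes, Retn and Adipoq lie higher in knockouts than in wild types after either injection, and the Rbp4 groups overlap in all 4 comparisons.

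The agonist lowered 3 of the 6 adipokines in each genotype and raised none. In knockouts Lep, C1qtnf9 and Nampt fell, and in wild types Lep, C1qtnf9 and Adipoq fell. At an adjusted p under 0.05 (limma, Benjamini-Hochberg over all tested genes) 17.9% of all tested genes were called in knockouts (10.2% lower), and 29.8% in wild types (18.8% lower). The median difference of the 6 genes was -0.49 in knockouts, against -0.057 over all tested genes, and -0.40 in wild types, against -0.071. In each genotype 4 of the 6 had CL316243 and saline arrays that did not overlap, where 40.2% of all tested genes in knockouts and 41.0% in wild types had none. Between genotypes, Adipoq and Retn were higher in knockouts after saline, and Adipoq, Retn and Lep were higher and Nampt lower in knockouts after CL316243.

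Lep fell after the agonist in both genotypes. Its log2 signal was 7.83, 7.96 and 7.88 in knockouts after CL316243, against 9.29, 8.62 and 8.72 in knockouts after saline. It was 7.15, 7.42 and 6.80 in wild types after CL316243, against 8.90, 8.79 and 8.81 in wild types after saline. Every CL316243 array lay below every saline array, and the 3 wild-type arrays after CL316243 were the lowest of all 12, as the plot of signals by array shows. The fall was -0.99 ± 0.18 on the log2 scale in knockouts (standard error, n = 3 per group, adjusted p = 0.00437), 1.98-fold lower, and -1.71 ± 0.18 in wild types (adjusted p = 8.27e-05), 3.27-fold lower.

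Lep did not differ detectably between genotypes after saline, at 0.04 ± 0.18 (95% interval of the fit -0.35 to 0.44, adjusted p = 0.887), and the sign turned without knockout saline array 1 (-0.16). After CL316243 it was 1.70-fold higher in knockouts than in wild types (0.77 ± 0.18, adjusted p = 0.0088), with no overlap between the groups. The interaction, which is the agonist response of knockouts less the agonist response of wild types, was 0.72 ± 0.25 (95% interval 0.17 to 1.28, adjusted p = 0.178), so the smaller fall in knockouts was not called as a difference. Without knockout saline array 1 the interaction was 0.93 ± 0.20 (adjusted p = 0.0479).

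C1qtnf9, the adiponectin relative, had the steepest fall of the 6 genes in both genotypes. Its signal was 7.75, 7.29 and 7.81 in knockouts after CL316243, against 9.46, 9.67 and 9.05 in knockouts after saline. It was 7.21, 7.01 and 7.52 in wild types after CL316243, against 9.55, 9.90 and 9.12 in wild types after saline. The CL316243 arrays of both genotypes lay more than 1 log2 unit below all saline arrays. The fall was -1.78 ± 0.23 in knockouts (adjusted p = 0.000745), 3.43-fold lower, and -2.27 ± 0.23 in wild types (adjusted p = 6.17e-05), 4.84-fold lower.

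The C1qtnf9 groups overlapped between genotypes after either injection. The difference was -0.13 ± 0.23 after saline (adjusted p = 0.734), turning positive without wild-type saline array 2 or knockout saline array 3, and 0.37 ± 0.23 after CL316243 (95% interval -0.13 to 0.87, adjusted p = 0.231). The interaction was 0.50 ± 0.32 (adjusted p = 0.509). Within groups the arrays did not order alike for the 2 genes that fell most: over the 12 arrays the signals of Lep and C1qtnf9 correlated at Pearson r = 0.88, and at -0.32 after the group means were removed, so the high value describes the group means. Markers of the cells themselves were also counted for the agonist. Of 8 shared adipocyte markers 1 rose and 3 fell in knockouts, and 1 rose and 2 fell in wild types. Of 7 brown adipocyte markers 2 rose and 1 fell in knockouts, and 3 rose and 0 fell in wild types. Of 8 endothelial markers 2 rose and 2 fell in knockouts, and 4 rose and 2 fell in wild types. Of all tested genes, 17.9% were called in knockouts and 29.8% in wild types. Without knockout saline array 1, 0 of the 8 shared adipocyte markers rose and 2 fell in knockouts. Of the 7 brown adipocyte markers 2 then rose and 2 fell in knockouts, where 10.7% of all tested genes were called. The part of these markers in the falls of Lep and C1qtnf9 was not tested.

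Adipoq, which encodes the insulin-sensitizing hormone adiponectin, was higher in knockouts. Its signal was 12.22, 12.07 and 12.03 in knockouts after CL316243, against 11.32, 11.54 and 11.45 in wild types after CL316243. It was 12.34, 12.31 and 12.36 in knockouts after saline, against 11.74, 12.11 and 11.74 in wild types after saline. All knockout arrays lay above the wild-type arrays of the same injection, and wild-type saline array 2 came closest. The difference was 0.67 ± 0.11 after CL316243 (adjusted p = 0.00132), 1.59-fold higher, and 0.47 ± 0.11 after saline (adjusted p = 0.0195), 1.39-fold higher. The saline call was lost when only those 2 groups were fitted (adjusted p = 0.0654) and without wild-type saline array 1 (0.0822) or 3 (0.0551) or knockout saline array 1 (0.066) or 3 (0.0724).

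Adipoq fell after the agonist in wild types by 0.42 ± 0.11 on the log2 scale (adjusted p = 0.0127), 1.34-fold lower. This small fall is relative to the scaling of the arrays: it was -0.31 with an adjusted p of 0.0641 after each array was centred on its median, and the call was also lost when only those 2 groups were fitted (0.0583). In knockouts the difference was -0.23 ± 0.11 (adjusted p = 0.173), and the interaction was 0.20 ± 0.15 (adjusted p = 0.601).

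Retn, the resistin gene, differed most between genotypes among the 6. Its signal was 10.70, 10.23 and 10.29 in knockouts after CL316243, against 8.33, 8.38 and 8.61 in wild types after CL316243. It was 10.36, 9.51 and 9.61 in knockouts after saline, against 8.87, 8.69 and 8.90 in wild types after saline. The lowest knockout array lay above the highest wild-type array. The difference was 1.97 ± 0.20 after CL316243 (adjusted p = 0.000141), 3.91-fold higher, and 1.0 ± 0.20 after saline (adjusted p = 0.0126), 2.01-fold higher, a call lost when only the saline groups were fitted (adjusted p = 0.056).

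The Retn difference after the agonist had opposite signs in the 2 genotypes, without a call in either. The difference was 0.58 ± 0.20 in knockouts (95% interval 0.14 to 1.03, adjusted p = 0.0698) and -0.38 ± 0.20 in wild types (adjusted p = 0.19). The interaction was 0.96 ± 0.29 (95% interval 0.33 to 1.59, adjusted p = 0.12). Without knockout saline array 1, which had the highest Retn of its group, the knockout difference was 0.85 ± 0.15 (adjusted p = 0.00748) and the interaction 1.23 ± 0.20 (adjusted p = 0.0185).

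Among the 6 genes, 2 were called between genotypes after saline, both higher, and 4 after CL316243, 3 higher and 1 lower. Of all tested genes, 11.6% were called after saline (5.44% higher and 6.19% lower) and 29.5% after CL316243 (14.7% higher and 14.8% lower). Their median difference was 0.13 after saline, against -0.055 over all tested genes, and 0.52 after CL316243, against -0.042. Groups without overlap between genotypes occurred for 2 of the 6 after saline, where 36.8% of all tested genes had none, and for 4 after CL316243, where 44.8% had none. Markers of other cells moved with the knockout: macrophage markers were higher in 5 of 7 tested after CL316243 and 6 of 7 after saline, and fibroblast markers in 8 of 8 and 5 of 8. Without knockout saline array 1 the saline counts were 2 of 7 and 4 of 8. The mean macrophage score was 0.38 to 0.59 in knockouts after CL316243 and 0.11 to 0.50 after saline, against -0.50 to -0.26 and -0.64 to -0.20 in the matching wild types. White adipocyte markers were higher in 2 of 6 and 1 of 6 (Nnat in both), with scores of -0.02 to 0.28 and 0.16 to 0.41 in knockouts, against -0.46 to -0.24 and -0.28 to 0.08 in wild types. Markers shared by brown and white adipocytes had 1 of 8 higher (Cidec) and 1 lower (Aqp7) after either injection. Brown adipocyte markers were lower in 6 of 7 after CL316243 and 3 of 7 after saline, and glandular epithelium markers were higher in 6 of 7 and 1 of 7. Without knockout saline array 1 the saline counts were 1 of 7 and 0 of 7, and 0 of the 8 shared adipocyte markers were lower after saline. With each array centred on its median, 0 of the 8 were lower after saline too. The part of all these cell type markers in the Adipoq, Retn and Lep differences was not tested.

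**Figure D2:**
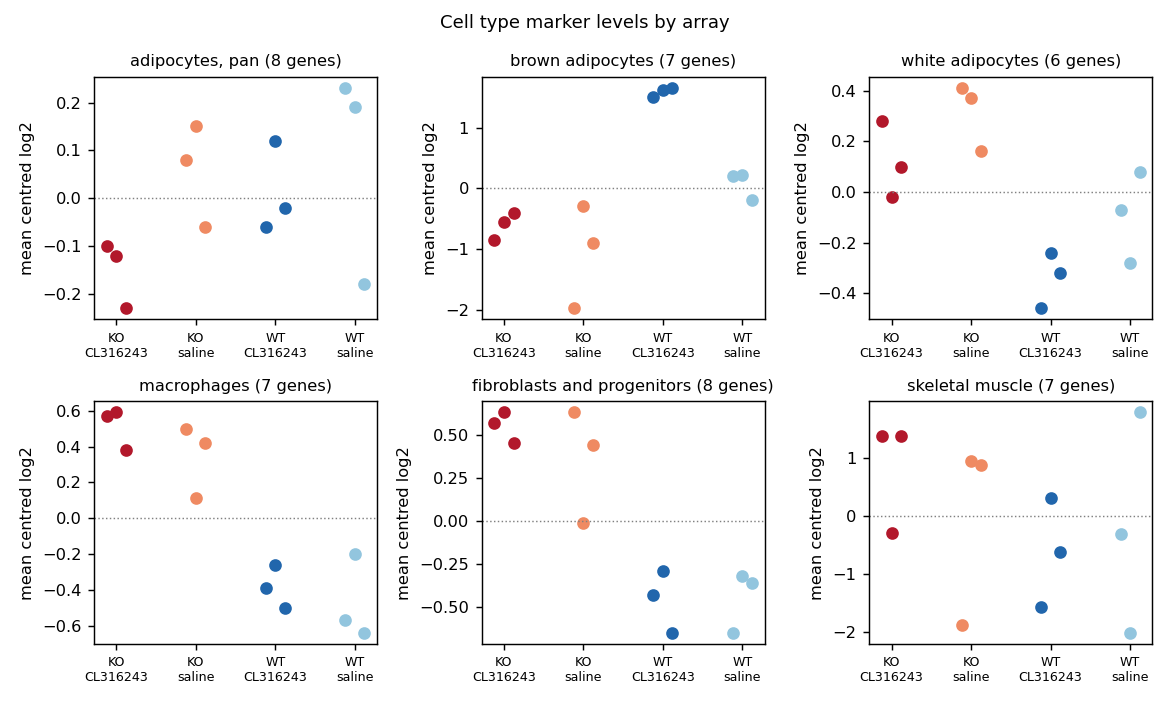
Mean log2 signal of marker lists for adipocytes and for other cell types, each gene centred on its mean over the 12 arrays (vertical axis), by group. Each point is 1 mouse. The macrophage and fibroblast scores lie higher in knockouts than in wild types after either injection, the brown adipocyte score is highest in wild types after CL316243 (1.5 to 1.65), and the scores of adipocyte markers shared by brown and white fat lie between -0.23 and 0.23.

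Nampt, the enzyme of NAD salvage, fell after the agonist in knockouts. Its signal was 9.13, 9.0 and 8.89 in knockouts after CL316243, against 9.72, 9.94 and 9.64 in knockouts after saline. It was 9.79, 9.73 and 9.43 in wild types after CL316243, against 10.17, 10.16 and 9.77 in wild types after saline. The 3 knockout arrays after CL316243 were the lowest of all 12, and the wild-type groups overlapped. The fall was -0.76 ± 0.14 in knockouts (adjusted p = 0.00433), 1.69-fold lower.

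In wild types the Nampt difference after the agonist was -0.38 ± 0.14 (95% interval -0.68 to -0.08, adjusted p = 0.0555), and it passed after quantile normalization (0.0193), with the stricter filter (0.0442) and without wild-type saline array 3 (0.0153). Nampt was 1.56-fold lower in knockouts after CL316243 (-0.64 ± 0.14, adjusted p = 0.00566). After saline the difference was -0.27 ± 0.14 (adjusted p = 0.218). The interaction was -0.38 ± 0.19 (adjusted p = 0.385), so the larger fall in knockouts was not called as a difference.

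Rbp4, the retinol carrier, passed no test. Its signal was 9.18, 9.46 and 9.29 in knockouts after CL316243, 9.53, 9.08 and 9.16 in knockouts after saline, 9.07, 9.47 and 9.48 in wild types after CL316243 and 9.14, 8.99 and 8.98 in wild types after saline. The groups overlapped in all 4 comparisons, and the 2 lowest of the 12 values were wild-type saline arrays. The difference between genotypes was -0.03 ± 0.14 after CL316243 (95% interval -0.34 to 0.28, adjusted p = 0.889) and 0.22 ± 0.14 after saline (adjusted p = 0.324), or 0.08 without knockout saline array 1. The agonist difference was 0.06 ± 0.14 in knockouts (adjusted p = 0.839) and 0.30 ± 0.14 in wild types (95% interval -0.01 to 0.62, adjusted p = 0.134), which passed with each array centred on its median (0.42, adjusted p = 0.0419) and without wild-type CL316243 array 1 (0.44, adjusted p = 0.0405). The interaction was -0.25 (adjusted p = 0.621).

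**Figure D3:**
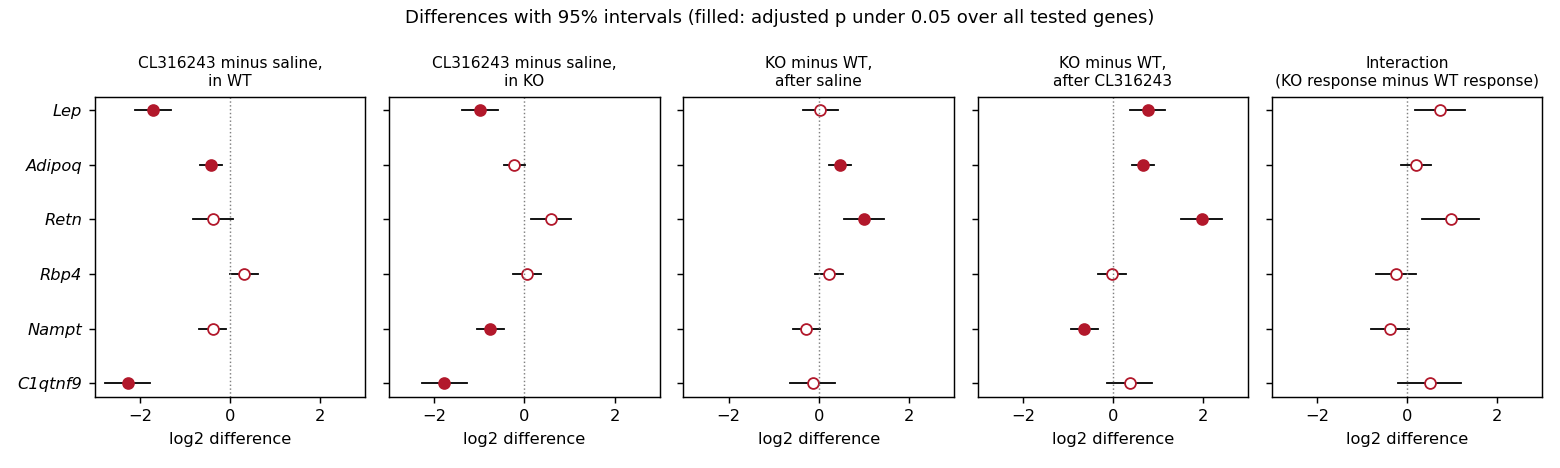
Log2 difference (horizontal axis) of each adipokine gene in the 4 comparisons and the interaction, with the 95% interval of the fit; filled points passed an adjusted p under 0.05 over all 15896 tested genes. The agonist differences of C1qtnf9 and Lep reach farthest below 0 and the genotype difference of Retn after CL316243 (1.97) farthest above it, and none of the 6 interactions passed.

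No interaction of the 6 genes was called, where 2.04% of all tested genes were (0.774% positive and 1.26% negative). At an unadjusted p under 0.05 there were 2, Lep and Retn, both positive. The share of all tested genes at that unadjusted threshold is not given here, so this count has no background to be read against. The median of the 6 was 0.35, against 0.011 over all tested genes.

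The genes around each adipokine were counted in lists of receptors, processing enzymes and relatives, shown in the plot of pathway genes. In each list most of the genes named are among those with the smallest p. Adipor1, Adipor2, Cap1, Stra6, Pparg, Cebpa, S100a8 and S100a9 were instead named for their roles, after their values were seen. Each call named from these lists kept its side of the threshold under all alternatives tried unless said otherwise. This does not cover the cell type markers named above. For Adipor1 and Pparg only the values as deposited are given. The lists are small and were chosen with earlier results of these data known, so their counts stand beside the shares of all tested genes given above.

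Of 10 tested genes of leptin receptor signalling, 4 rose and 2 fell after the agonist in knockouts, and 2 rose and 3 fell in wild types. Stat3, the transcription factor that carries the leptin signal in neurons, rose by 0.72 ± 0.12 in knockouts (adjusted p = 0.00256) and 0.55 ± 0.12 in wild types (adjusted p = 0.00511). Stat5a, a related factor, fell by 0.41 ± 0.081 in knockouts and by 0.76 ± 0.081 in wild types. Socs3, the feedback inhibitor of leptin receptor signalling, rose by 0.87 ± 0.15 in knockouts (adjusted p = 0.00381) and was at 0.00 ± 0.15 in wild types, with an interaction of 0.86 ± 0.22 (adjusted p = 0.0674), which passed with the stricter filter (0.0482) and without knockout CL316243 array 1 (1.02, adjusted p = 0.0344). Between genotypes, 4 genes were higher and 1 lower after CL316243, and Socs3 was lower after saline (-0.55, adjusted p = 0.0408, lost under 12 of 21 alternatives). With knockout saline array 1 left out, 2 genes rose and 1 fell after the agonist in knockouts, and 0 were called between genotypes after saline.

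Of 9 tested genes for adiponectin receptors and adiponectin assembly, 1 was higher and 1 lower in knockouts after either injection, and without knockout saline array 1 none was called after saline. The higher gene was P4hb, protein disulfide isomerase, a folding enzyme of the secretory pathway, at 0.76 ± 0.081 after CL316243 (adjusted p = 0.000168) and 0.37 ± 0.081 after saline (adjusted p = 0.017, lost without knockout saline array 1 or 3 or wild-type saline array 1). The receptor gene Adipor1 was lower after CL316243 (-0.32 ± 0.088, adjusted p = 0.0203), and the receptor gene Adipor2 was at -0.21 ± 0.12 (adjusted p = 0.216).

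Of 6 tested relatives and proposed receptors of resistin, 3 were higher in knockouts after CL316243. Tlr4, the lipopolysaccharide receptor and a proposed resistin receptor, had 7.03, 7.24 and 6.91 in knockouts after CL316243, against 6.28, 6.34 and 5.84 in wild types after CL316243. The groups were well apart, with a difference of 0.91 ± 0.16 (adjusted p = 0.00242). Ror1, a receptor tyrosine kinase, was higher by 0.99 ± 0.17 in the same comparison (adjusted p = 0.00173). Retnlg, resistin-like gamma, rose after the agonist in knockouts by 1.34 ± 0.26 (adjusted p = 0.00569), and was lower in knockouts after saline (-0.89 ± 0.26, adjusted p = 0.0475, lost under 11 of 21 alternatives). Its signals in knockouts after saline (5.29, 5.49 and 5.63) lay near the expression floor, under it in 1 of 3 arrays. The size of both Retnlg differences is therefore uncertain. Of 6 tested neutrophil markers, 3 were lower in knockouts after saline, 0 without knockout saline array 1. For the agonist in knockouts the neutrophil gene S100a8 was at 1.03 ± 0.44 (adjusted p = 0.133) and S100a9 at 0.90 ± 0.40 (adjusted p = 0.15), neither called. S100a9 lay under the floor in 2 of 3 knockout saline arrays. The mean neutrophil score was -0.38 to 0.31 in knockouts after CL316243 and -0.57 to -0.19 in knockouts after saline, against -0.01 to 0.05 and 0.16 to 0.79 in the matching wild types, and its part in the Retnlg differences was not tested. Cap1, another proposed receptor, was at 0.22 ± 0.093 after CL316243 (adjusted p = 0.0947).

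Of 14 tested genes of the retinoid list, 2 were higher and 1 lower in knockouts after CL316243, and 1, Lrat, was lower after saline, a call lost under 14 of 20 alternatives. When knockout saline array 1 was left out, 2 were higher and 0 lower after CL316243 and 0 were called after saline. Lrat was also 1 of the 2 higher after CL316243 (0.66, limma adjusted p = 0.017, lost under 3 of 20 alternatives). It had the only called interaction of this list (1.27, limma adjusted p = 0.0291, lost under 9 of 19). Its signals lay near the expression floor, under it in 2 of 3 wild-type arrays after CL316243, so the sizes of its differences are uncertain. Rbp7, a cellular retinol binding protein of adipose and endothelial cells, rose after the agonist. Its signal was 8.52, 8.0 and 8.06 in knockouts after CL316243, against 6.99, 7.36 and 6.68 in knockouts after saline, and 8.88, 8.77 and 8.53 in wild types after CL316243, against 6.80, 6.88 and 6.71 in wild types after saline. The groups did not overlap, and the rise was 1.18 ± 0.18 in knockouts (adjusted p = 0.00172) and 1.93 ± 0.18 in wild types (adjusted p = 3.59e-05). Aldh1a1, which makes retinoic acid, was higher in knockouts after CL316243 by 1.33 ± 0.27 (adjusted p = 0.00449). Stra6, the membrane receptor for Rbp4, passed no test, at 0.18 ± 0.11 after CL316243 (adjusted p = 0.235).

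Adipsin, the product of Cfd, cleaves complement factor B, and 13 other genes of that alternative complement pathway were listed, of which 10 had a row of their own and 9 were tested. Of the 9, 6 were higher in knockouts after CL316243 and 4 after saline, and none was lower. The list medians were 0.54 and 0.51, against -0.042 and -0.055 over all tested genes. Cfb, the substrate of adipsin, had 9.34, 9.40 and 9.08 in knockouts after CL316243, against 7.27, 7.46 and 7.17 in wild types after CL316243, and 9.50, 8.94 and 9.53 in knockouts after saline, against 7.65, 8.11 and 7.75 in wild types after saline. Each knockout array was above each wild-type array, with differences of 1.97 ± 0.17 (adjusted p = 5.78e-05) and 1.49 ± 0.17 (adjusted p = 0.00132). C3ar1, the receptor of the C3a fragment, was higher by 1.78 ± 0.20 after CL316243 and 1.23 ± 0.20 after saline, or 0.95 and 0.56 when the mean of its rows was taken. The macrophage and fibroblast scores given above moved in the same arrays, and their part in these differences and in that of Tlr4 was not tested. Without knockout saline array 1, 2 of the 9 were higher after saline, and the list median was 0.50.

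In the NAD list of 16 tested genes, 5 were lower and 1 higher in knockouts after CL316243, and 4 were lower after saline, 1 without knockout saline array 1. The list median after saline was -0.18, or -0.16 without that array. Sirt3, the NAD-dependent deacetylase of mitochondria, was lower in knockouts, with differences of -0.69 ± 0.10 after CL316243 (adjusted p = 0.000936) and -0.66 ± 0.10 after saline (adjusted p = 0.00453). It also fell after the agonist, with differences of -0.62 ± 0.10 in knockouts and -0.59 ± 0.10 in wild types. Nnmt, the methyltransferase that consumes nicotinamide, the substrate of Nampt, rose after the agonist by 1.08 ± 0.18 in knockouts (adjusted p = 0.00267) and 1.66 ± 0.18 in wild types (adjusted p = 9.37e-05), so it moved opposite to Nampt in knockouts.

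None of the 11 tested C1q/TNF relatives of C1qtnf9 was called for the agonist in either genotype (limma). At an unadjusted p under 0.05, for which no share of all tested genes is given, 2 were lower in knockouts and 2 higher in wild types. The count of 0 in wild types depended on the scaling, with 2 higher after quantile normalization and 2 after each array was centred on its median, among them C1qtnf6 (0.48 under both, adjusted p = 0.0248 and 0.03). It also depended on the filter and on single arrays. C1qtnf6 passed with the stricter filter (0.045) and without wild-type CL316243 array 3 (0.0308) or knockout CL316243 array 2 (0.0448) or 3 (0.0488). C1qtnf12 passed without wild-type saline array 2 (0.0265). No relative was called lower under either scaling, and the medians of the list were -0.03 in knockouts and 0.00 in wild types. After CL316243, 2 relatives were higher and 2 lower in knockouts (1 lower without knockout saline array 1, and 4 lower after median-centring), among them C1qtnf7 (0.76 ± 0.15, adjusted p = 0.0036) and C1qtnf12 (-0.65 ± 0.13, adjusted p = 0.0044). The C1qtnf7 signals of wild types lay near the expression floor, under it in 2 of 3 arrays after either injection, so the size of that difference is uncertain.

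Of 18 tested transcription factors that act on adipocyte genes, 7 were lower and 2 higher in knockouts after CL316243, and 7 and 1 without knockout saline array 1. After saline limma called 0 of the 18, and 4 were higher and 2 lower at an unadjusted p under 0.05. No share of all tested genes is given at that unadjusted threshold. Of the 18, 4 had a called interaction, all negative. Cebpb, a C/EBP factor induced by cAMP, had 8.75, 8.77 and 8.70 in knockouts after CL316243, 7.72, 8.39 and 7.98 in knockouts after saline, 10.08, 9.95 and 10.05 in wild types after CL316243 and 8.31, 7.95 and 8.27 in wild types after saline. It rose after the agonist in both genotypes, by 0.71 ± 0.15 in knockouts (adjusted p = 0.00914) and 1.85 ± 0.15 in wild types (adjusted p = 1.81e-05), with an interaction of -1.14 ± 0.21 (adjusted p = 0.0225, up to 0.0643 over the alternatives). Pparg, the master regulator of adipocyte genes including Adipoq, was lower in knockouts after CL316243 (-0.65 ± 0.11, adjusted p = 0.00178), while Cebpa was at -0.02 ± 0.095 (adjusted p = 0.882). Ebf2, a factor of brown adipocyte identity, was also lower after CL316243 (-0.86 ± 0.089, adjusted p = 0.000142) and had an interaction of -0.86 ± 0.13 (adjusted p = 0.00886).

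**Figure D4:**
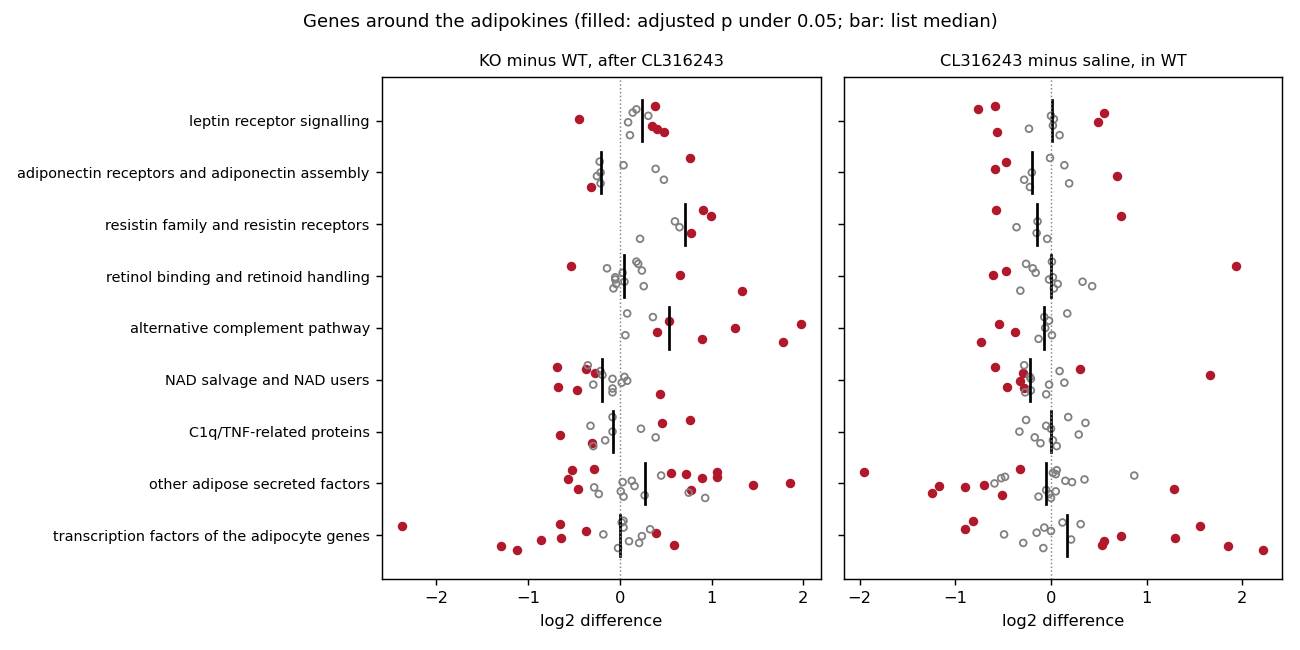
Log2 difference (horizontal axis) of the tested genes of 9 lists around the adipokines, in knockouts minus wild types after CL316243 (left) and CL316243 minus saline in wild types (right); each point is 1 gene, filled where the adjusted p was under 0.05, and the bar is the list median. In the left panel the complement list has 6 filled points above 0 and none below, and in the right panel the C1q/TNF list has no filled point, on the values as deposited.

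To place each adipokine among all genes, the 2 tested genes with the highest Pearson correlation over the 12 arrays were taken, out of 15890 compared, as a description with no test. The arrays share the 4 group means, so the correlation after removing those means is given too. Lep was most like Pik3r4 (r = 0.985, 0.78 within groups) and Ctdsp2 (0.981 and 0.69). C1qtnf9 was most like Septin4 (0.983 and 0.78) and Aplnr, the apelin receptor gene of endothelial cells (0.982 and 0.68). Aplnr had 7.17, 6.69 and 7.41 in knockouts after CL316243, 9.43, 9.11 and 9.22 in knockouts after saline, 6.68, 6.33 and 6.51 in wild types after CL316243 and 9.50, 9.92 and 9.30 in wild types after saline. Its groups thus split by injection as those of C1qtnf9 did.

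Retn was most like Tcaf1 (0.976 and 0.75) and Atxn10 (0.966 and 0.66), and Adipoq was most like Znfx1 (0.974 and 0.70) and Pcdh19 (0.974 and 0.74). Tcaf1, a regulator of an ion channel, had 7.53, 7.30 and 7.39 in knockouts after CL316243, 7.36, 7.15 and 7.17 in knockouts after saline, 6.23, 6.45 and 6.53 in wild types after CL316243 and 6.70, 6.67 and 6.57 in wild types after saline. As with Retn, no wild-type array reached a knockout array. Nampt was most like the mitochondrial carrier gene Slc25a16 (0.983 and 0.88) and the sorting nexin gene Snx14 (0.975 and 0.84). Rbp4 had looser neighbours, Mmp28 (0.824 and 0.93) and Rapgef6 (0.803 and 0.82), whose likeness was at least as high within groups as over all arrays.

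**Figure D5:**
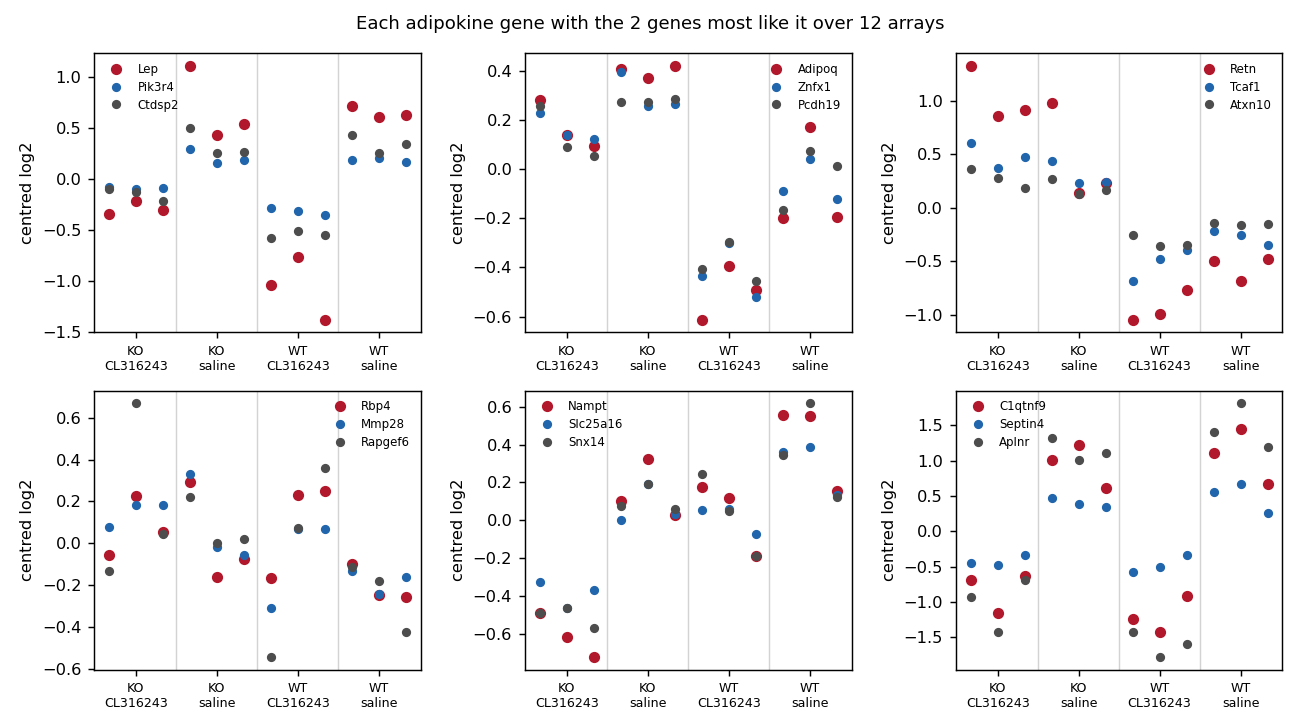
Signal of each adipokine gene and of the 2 genes most like it over the 12 arrays (vertical axis, log2 signal centred on the mean of the gene), with arrays ordered as knockouts after CL316243, knockouts after saline, wild types after CL316243 and wild types after saline along the horizontal axis. Lep and C1qtnf9 and their neighbours split by injection, and Retn and its neighbours by genotype. The Rbp4 groups overlap in every comparison. Its neighbour Mmp28 lies higher in knockouts than in wild types after either injection, and Rapgef6 does so after saline, though none of these differences was called.

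Among the 6 genes themselves, the pairs with the highest correlations over the 12 arrays after Lep with C1qtnf9 were Adipoq with Retn (0.76 over the arrays and 0.06 within groups) and Lep with Adipoq (0.67 and 0.04). Retn and Nampt, which differed in opposite directions between genotypes after CL316243, correlated at -0.65 over the arrays and -0.23 within groups. Lep, Retn and Rbp4 had the highest values within groups, 0.51 for Lep with Rbp4, 0.50 for Retn with Rbp4 and 0.44 for Lep with Retn, and these 3 genes share the high value of knockout saline array 1.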

How the data were processed

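RNA of brown fat from 12 mice was hybridised to Affymetrix mouse exon arrays, 1 array per mouse. The deposited values are log2 signals per transcript cluster, which per the submitters' processing notes the authors made in Partek using RMA, on build mm9. Software versions are not given in the sources used here. Arrays give no read depth, and the 3 arrays per group limit precision. Of 115830 rows in the value table, 27839 have a probe annotation, 25539 to 1 gene and 2300 to several. Rows assigned to a single gene stood for 20259 genes, each by its row of highest mean. Signals of different genes come from different probes and are not compared with each other. Promoter windows were matched by symbol for all 6 measured members.

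Genes above the 25th percentile of an array in at least 3 arrays were tested (15896). One mean per group was fitted over all 12 arrays with limma 3.58.1 (R 4.3.3) with empirical Bayes moderation (8 residual and 3.14 prior degrees of freedom). Within each of 5 contrasts, Benjamini-Hochberg adjustment ran across the whole set of tested genes, and adjusted p-values under 0.05 are called. Errors are standard errors of the fit. The design text calls the 3 mice of a group biological replicates. Tables and plots were made in Python 3.11.15 (pandas 2.3.3, matplotlib 3.10.9). On simulated data with 200 of 15896 genes changed by 1 log2 unit, the fit recovered 92, 88, 90, 89 and 68% for the agonist in wild types, the agonist in knockouts, genotype after saline, genotype after CL316243 and the interaction. With changes of 0.5 log2 units it recovered 39.5, 26, 35.5, 38.5 and 0% in the same order. The simulated noise was normal and independent between genes and between arrays, and the changed genes were shifted in 1 group. Fewer genes changed in the simulation than were called in each contrast of the data. Recovery in the data may therefore differ from these figures.

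The members and lists were chosen with earlier results of these data known. All members are named in all contrasts, with at most 4 genes per list by smallest p over the 5 contrasts and the 2 genes most like each member. Adipor1, Adipor2, Cap1, Stra6, Pparg, Cebpa, S100a8 and S100a9, named for their roles, fall outside that rule, and were chosen after their values were seen. Alternatives were quantile normalization, median-centring, no filter or a 50th percentile filter, the mean of a gene's rows, trended or robust moderation, fitting only the groups compared, replicate number as a block and leaving out each array. Same-numbered arrays of different groups deviated together in 7 of 18 pairs at r over 0.1 (-0.30 to 0.48). Differently numbered arrays did so in 12 of 36 pairs (-0.52 to 0.41), so the numbers were not taken as pairs.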

Additional observations from a re-analysis of the deposited data

How the results depend on the processing

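Of the 12 calls among the 6 adipokines, 9 held under all of the 21 alternatives per comparison (20 for the interaction) and none changed sign; the exceptions are the saline genotype calls of Adipoq and Retn and the wild-type agonist call of Adipoq, given above. Of the 18 differences without a call, 5 passed under at least 1 alternative and 4 changed sign under at least 1: Rbp4 for the agonist in knockouts (-0.033 without knockout saline array 2, -0.020 without knockout CL316243 array 2, at most 0.19 with 1 array left out), Lep for genotype after saline (-0.16 without knockout saline array 1, at most 0.17), C1qtnf9 for genotype after saline (0.062 without wild-type saline array 2, 0.044 without knockout saline array 3, at least -0.33) and Rbp4 for genotype after CL316243 (0.034 and 0.043 without wild-type CL316243 arrays 2 and 3, 0.036 without knockout CL316243 array 1, at least -0.16). Leaving out 1 array gave 3 to 4 called adipokines for the agonist in knockouts and in wild types, 4 to 4 for genotype after CL316243, 1 to 2 after saline and 0 to 2 for the interaction. Over all tested genes, calls then ran from 1591 to 3358 (2851 with all arrays) for the agonist in knockouts, 3531 to 4709 (4735) in wild types, 3232 to 4742 (4685) for genotype after CL316243, 581 to 2458 (1849) after saline and 128 to 399 (324) for the interaction. Fitting only the saline groups called 0 adipokines, and 604 of all tested genes, and the stricter filter called 497 interactions. With replicate number as a block, 4 adipokines were called for the agonist in knockouts (Retn added, adjusted p = 0.0492) and 4 in wild types (Nampt added, 0.0128), 4 for genotype after CL316243, 2 after saline and 0 interactions. The share of calls that were higher was 36.8% for the agonist in wild types as deposited, 49.7% after quantile normalization and 62.2% after median-centring, which moved the median of all genes by 0.117; in knockouts it was 43.2, 51.9 and 63.8%. For genotype after CL316243 it was 49.7, 46.1 and 39.7%, and for the interaction 38.0, 30.9 and 24.1%. The genes picked from the lists by smallest p, or by likeness to a member, had 111 calls, not all of them described above. Of these, 38 were lost under at least 1 alternative and none changed sign. Adipor1 and Pparg are not among these genes.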

Other observations

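Other secreted factors of adipose tissue, 23 tested genes beside the adipokines, were also counted. In knockouts 8 were higher and 4 lower than in wild types after CL316243, against 14.7% and 14.8% of all tested genes, and 1 was higher and 2 lower after saline, 0 and 0 without knockout saline array 1. Igf1, the insulin-like growth factor gene, had 9.45, 9.44 and 9.20 in knockouts after CL316243, against 7.81, 8.04 and 7.90 in wild types after CL316243. The groups lay far apart, with a difference of 1.45 ± 0.13 (log2, standard error, limma adjusted p = 7.76e-05). Tnf, the inflammatory cytokine gene, was higher by 1.06 ± 0.26 in the same comparison (adjusted p = 0.0108), with 6.66, 7.25 and 6.99 in knockouts after CL316243, against 5.99, 5.55 and 6.16 in wild types after CL316243.

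The agonist raised 3 and lowered 2 of these genes in knockouts and raised 1 and lowered 7 in wild types. Of all tested genes, 17.9% were called in knockouts (10.2% lower) and 29.8% in wild types (18.8% lower). After each array was centred on its median, 3 rose and 4 fell in wild types. Fgf21, a hormone of the fasting and stress response, rose by 0.96 ± 0.11 in knockouts (adjusted p = 0.000348) and 1.28 ± 0.11 in wild types (adjusted p = 2e-05). Hp, haptoglobin, fell by 0.68 ± 0.11 in knockouts (adjusted p = 0.00217) and by 1.17 ± 0.11 in wild types (adjusted p = 3.46e-05). Tnf fell in wild types by 1.95 ± 0.26 (adjusted p = 0.000353) and was at -0.41 ± 0.26 in knockouts (adjusted p = 0.316), with an interaction of 1.55 ± 0.36 (adjusted p = 0.0551). The interaction passed with the stricter filter (0.0401), with trended moderation (0.0493), with replicate number as a block (0.0401) and without knockout saline array 3 (1.85, adjusted p = 0.0213).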
